A study of Mus musculus with 14 samples.

Results

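This report follows 29 genes of cholesterol synthesis and sterol sensing in mouse peritoneal macrophages, out of 20347 genes measured on whole-genome arrays. The members were taken as a list by gene symbol and not picked by a measured value, but with earlier results of these data known. They are 20 enzymes of the pathway from acetyl-CoA to cholesterol, 5 genes of the sterol sensor and 4 others. The 4 act in sterol carriage, receptor degradation, esterification and oxidation. All 29 were found by symbol and passed the filter on dim probes, so no member is missing from the counts. The cells came from the peritoneal cavity of C57BL/6 mice and had been sorted for CD11b and F4/80, the surface proteins used to pick macrophages. There were 3 arrays of the PBS vehicle (titled untreated), 4 of IL-4C, 3 of thioglycollate (Thio) and 4 of the combination (Thio+IL-4C). IL-4C is 5 µg of the cytokine IL-4 bound to 25 µg of the antibody 11B11, which prolongs its action, and thioglycollate was 2 ml of a 4% medium that draws blood monocytes into the cavity. Every agent was injected into the peritoneum, the labels name no engineered allele and no age. Macrophages of the PBS and IL-4C groups are called resident below and those of the Thio and Thio+IL-4C groups elicited.

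Cholesterol is built from acetyl-CoA through mevalonate, isoprenoid pyrophosphates, squalene and lanosterol, and most of its enzymes are transcribed under the membrane-bound factors called SREBPs. When sterols are scarce, the escort protein Scap carries the SREBPs to the Golgi, where they are cut and released; when sterols or oxysterols abound, the Insig proteins hold Scap in the endoplasmic reticulum. Macrophages also take up cholesterol from lipoproteins and dead cells, store it as esters and export it, so synthesis and storage are often described together in these cells.

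A level below is log2 of an array's processed signal minus log2 of that array's 75th percentile, so 0 is the 75th percentile and 1 unit is a 2-fold step. A difference is between group means of such levels, with its standard error (SE) and limma's Benjamini-Hochberg adjusted p over all 20347 genes, two-sided and called under 0.05. Levels of different genes come from different probes and are not set against each other. Whether the arrays of a group came from separate mice is not said in the labels; the spread behind each p-value is that between samples and may be technical. In sorted bulk RNA, fewer cells of a type and less RNA per cell cannot be told apart.

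The 75th percentile of the processed signal was 1271.0 to 1810.5 with PBS, 3050.8 to 3865.6 with IL-4C, 2285.9 to 3571.4 with Thio and 2036.4 to 2536.6 with Thio+IL-4C. Well above background were 79.2% to 84.9%, 86.2% to 92.6%, 86.7% to 94.4% and 92.5% to 95.7% of probes. The arrays lay on 2 slides: slide 1 held all PBS and IL-4C arrays and Thio 1, and slide 2 held Thio 2, Thio 3 and all Thio+IL-4C arrays. Thio 1 stood apart from its group, with a correlation across genes of 0.848 and 0.865 with Thio 2 and Thio 3, against 0.984 between those, and of 0.917 to 0.931 with PBS arrays, which share its slide. Its summed level of 8 markers of resident peritoneal macrophages was 2.59, beside 2.80 and 2.74 on the other Thio arrays and 8.72 to 8.93 with PBS. Adgre1, which encodes F4/80, had levels of 6.44 to 6.61 with PBS and 6.22 to 6.36 with IL-4C. It was at 4.68 to 4.77 with Thio and 3.45 to 3.71 with Thio+IL-4C. IL-4C versus PBS lies within slide 1, Thio+IL-4C versus IL-4C is split by slide. The member counts of all 5 comparisons, and single members where named, are given also with slide as a block, which compares arrays within a slide.

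The stretches of 250 bases before the transcription start of 5 members are shown here because these genes carry the contrasts described below. Hmgcs1 was the one member with a sterol regulatory element core in its window, and Mvd rose with IL-4C in both kinds of cell. Msmo1 and Srebf2 rose in one and fell in the other, the fall of Srebf2 being on its brighter probe only. Ch25h had the widest difference. The sequences are from RefSeq on GRCm38.p6, each read 5′ to 3′ on the strand of its gene: chr13:119690101-119690350 (plus strand) for Hmgcs1, chr8:122443423-122443672 (minus) for Mvd, chr8:64733579-64733828 (minus) for Msmo1, chr15:82147019-82147268 (plus) for Srebf2 and chr19:34475149-34475398 (minus) for Ch25h. Capitals mark the sterol regulatory element core TCACNCCAC, where SREBPs are known to bind, and the CCAAT box, the site of the cofactor NF-Y, on either strand (ATTGG is CCAAT on the opposite strand).
Hmgcs1: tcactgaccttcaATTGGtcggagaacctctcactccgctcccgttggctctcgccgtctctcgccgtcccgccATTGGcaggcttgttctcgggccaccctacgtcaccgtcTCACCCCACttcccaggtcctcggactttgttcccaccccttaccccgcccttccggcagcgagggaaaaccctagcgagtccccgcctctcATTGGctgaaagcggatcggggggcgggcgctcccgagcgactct
Mvd: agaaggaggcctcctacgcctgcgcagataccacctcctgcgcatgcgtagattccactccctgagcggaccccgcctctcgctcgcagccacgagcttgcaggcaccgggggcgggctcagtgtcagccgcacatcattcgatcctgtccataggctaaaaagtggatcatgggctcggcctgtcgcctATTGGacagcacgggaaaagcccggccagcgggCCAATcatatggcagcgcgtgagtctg
Msmo1: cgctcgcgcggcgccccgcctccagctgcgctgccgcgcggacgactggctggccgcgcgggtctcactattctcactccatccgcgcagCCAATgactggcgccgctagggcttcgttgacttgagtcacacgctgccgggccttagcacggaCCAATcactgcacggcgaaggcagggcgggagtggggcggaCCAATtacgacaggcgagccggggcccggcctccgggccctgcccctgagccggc
Srebf2: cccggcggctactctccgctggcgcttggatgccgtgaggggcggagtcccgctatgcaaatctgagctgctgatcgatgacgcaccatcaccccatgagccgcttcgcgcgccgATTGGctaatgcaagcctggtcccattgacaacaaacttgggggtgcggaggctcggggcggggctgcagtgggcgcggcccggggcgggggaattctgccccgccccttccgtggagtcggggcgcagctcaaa
Ch25h: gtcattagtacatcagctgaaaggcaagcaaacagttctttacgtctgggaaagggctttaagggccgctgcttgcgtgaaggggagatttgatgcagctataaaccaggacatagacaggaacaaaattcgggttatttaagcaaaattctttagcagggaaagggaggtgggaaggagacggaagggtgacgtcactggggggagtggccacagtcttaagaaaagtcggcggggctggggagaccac
The stretch of Hmgcs1 held 1 sterol regulatory element core, 137 bases before the start, and 3 CCAAT boxes. Those of Mvd, Msmo1 and Srebf2 held 2, 3 and 1 CCAAT boxes and no such core, and that of Ch25h held neither. In windows from 250 bases before to 50 after the start, which were given for 25 of the 29 members (not for Fdps, Fdft1, Sqle and Stard4), CCAAT was found in 22, or 88.0%, against 41.1% of 27025 genes. The 3 without it were Acat2, Scap and Ch25h. The GC box GGGCGG, the site of Sp1-type factors, was in 22 of 25 members against 38.2% of genes. The sterol regulatory element core in the strict spelling above was in 1 of 25 members against 1.4% of genes. A gene with several starts counts where any of its windows held the motif, for the members as for all genes. Both strands were searched and the 3 motifs were counted separately, so that matches may share bases, and a match describes only the letters of the window.

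**Figure D1:**
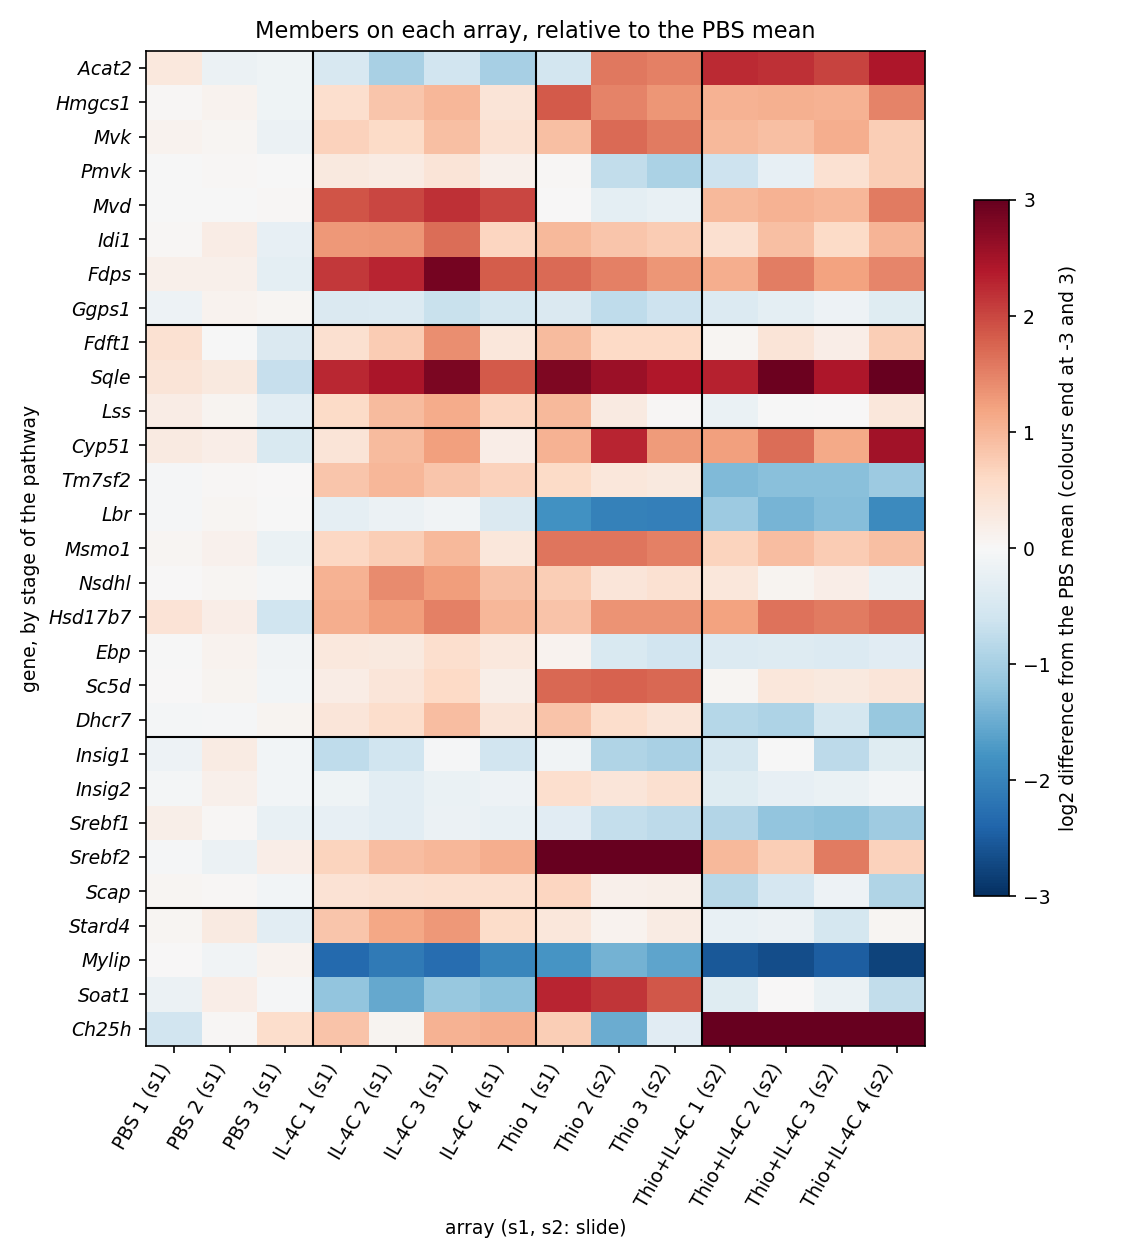
Log2 difference of each of the 29 members from its PBS mean on each of the 14 arrays, by stage of the pathway from top to bottom, with s1 and s2 giving the slide. Sqle is red on every array outside PBS, Mylip is blue on every array outside PBS, and Ch25h passes the end of the colour scale on the 4 Thio+IL-4C arrays.

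In resident macrophages IL-4C raised much of the pathway. Of the 29 members, 15 were higher than with PBS, 3 were lower and 11 did not pass the test, beside 16.8% of all genes higher and 15.4% lower. Most of these were enzymes: 13 of 20 rose and 1 fell, against 2 higher and 2 lower among the 9 other members. The median difference was 0.67 over the members and -0.01 over all genes. At least 2-fold higher were 6 members and at least 2-fold lower 2. Both groups lie on slide 1, so slide as a block leaves each difference unchanged and acts only on the shared spread. It is thus no check against slide. With the block all 18 calls were kept, and Ebp and Scap (higher) and Acat2 (lower) passed too. That made 17 higher and 4 lower, beside 21.1% and 22.1% of all genes. Without PBS 3, the PBS array with the lowest levels of Sqle, Hsd17b7 and Cyp51, 10 members stayed higher. Hmgcs1, Mvk, Lss, Dhcr7 and Sc5d then missed the threshold, with adjusted p of 0.0544, 0.0701, 0.0849, 0.058 and 0.159. Dhcr7 and Sc5d also missed it without PBS 1, PBS 2, IL-4C 2 or IL-4C 3, with adjusted p of up to 0.122, and Lss without IL-4C 3 at 0.0509. Sc5d missed it too, at 0.0542 to 0.0615, without Thio 2, Thio 3 or any of Thio+IL-4C 2 to 4, which are outside the comparison and add only to the shared spread. Fdft1 passed it without PBS 1 or IL-4C 4, and Acat2 (lower), Ebp and Scap without Thio 1, Scap also without Thio+IL-4C 3 (0.0233) or Thio+IL-4C 4 (0.0487).

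The thioglycollate-elicited cells, without IL-4C, were also higher than PBS cells in much of this pathway. Of the 29 members, 15 were higher, 4 lower and 10 not called, beside 20.1% of all genes higher and 24.3% lower, with a median of 0.52 over the members and -0.09 over all genes. Among the enzymes 12 of 20 were higher and 2 lower, and 10 members were at least 2-fold higher and 2 at least 2-fold lower. With slide as a block the comparison is that of Thio 1 with the PBS arrays, and it gave 13 higher and 3 lower, beside 15.1% and 14.4% of all genes, with 15 of the 19 calls kept and none turned. The IL-4C and Thio groups are both set against the same PBS arrays here.

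With IL-4C in mice that also received thioglycollate, the share of members called higher was close to that of all genes. Against Thio alone, 4 members were higher, 10 lower and 15 not called, beside 16.3% of all genes higher and 23% lower, and the median was -0.38 over the members and 0.04 over all genes. The 4 that rose were Mvd, Acat2, Lbr and Ch25h. Slide as a block here sets Thio+IL-4C against Thio 2 and Thio 3 only. With the block all 14 calls were kept, and Ggps1 and Pmvk (higher) and Mvk (lower) passed too. That made 6 higher and 11 lower, beside 20.8% and 21.2% of all genes. Of the 20 enzymes 3 rose and 4 fell, close to the shares of all genes. On the brightest probes 4 of the 5 sterol sensing genes fell. The falls of Srebf2 and Insig2 were not seen as calls on their other probes, at 0.12 (SE 0.22) and -0.19 (SE 0.20). On the brightest probes Mvd was the only member called higher with IL-4C in both resident and elicited cells. Mylip and Soat1 were called lower in both. The other probe of Pmvk was also higher in both, at 1.0 and 0.70 (p adjusted over all probes 0.0015 and 0.012). Tm7sf2, Msmo1, Sc5d, Dhcr7 and Srebf2 rose in resident cells and fell in elicited cells, the fall of Srebf2 being on its brighter probe only. Another 9 members rose in resident cells and were not called in elicited ones. No array is shared between these 2 comparisons.

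Whether these responses differed was tested as an interaction, the elicited response minus the resident one. It was lower for 18 members and higher for 5, beside 19.8% and 12.8% of all genes, with a median of -1.11 over the members and -0.05 over all genes. Of the 20 enzymes 13 were lower and 3 higher, and in 16 members the response was at least 2-fold lower. With slide as a block it was lower for 18 and higher for 6, beside 21.1% and 19% of all genes, with a median of -0.99. Of the 23 calls 22 were kept with slide as a block, and Fdft1 was not, at 0.0823.

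**Figure D2:**
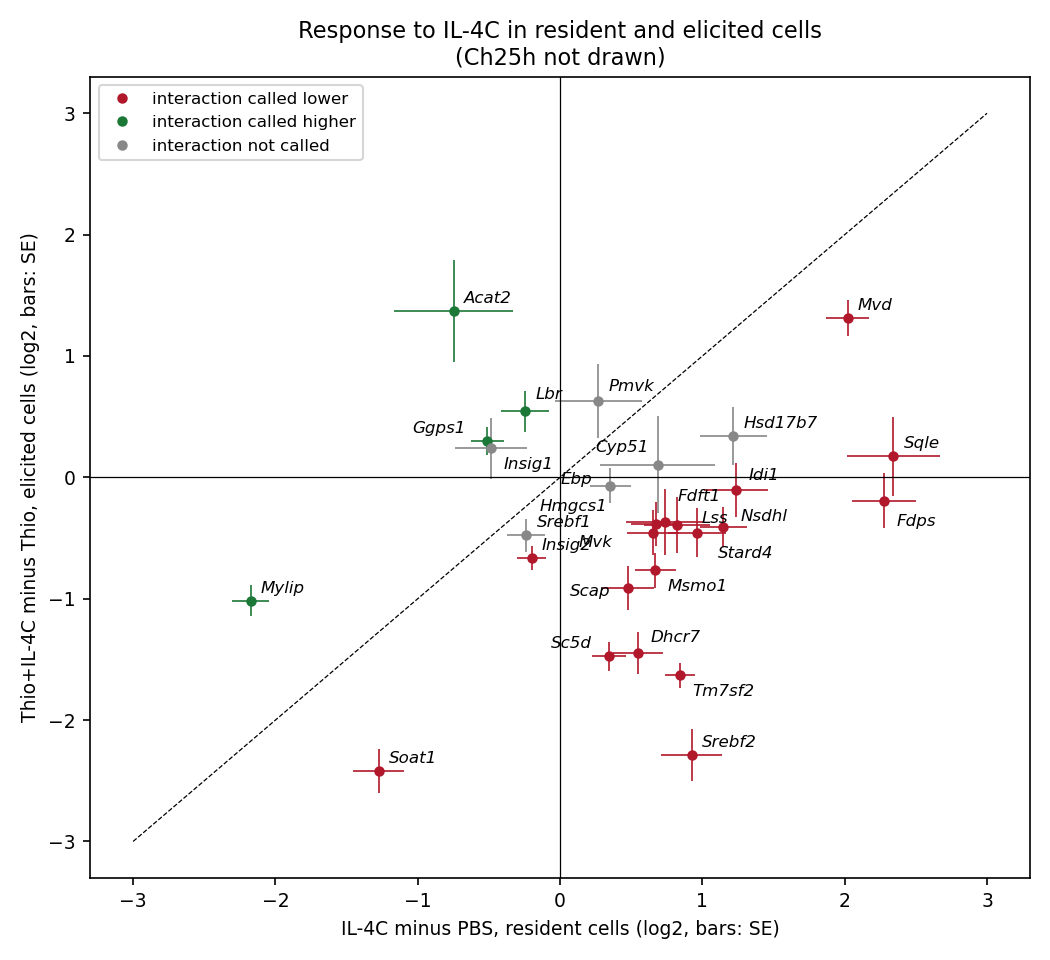
Response to IL-4C of 28 members as log2 differences with their SE, resident cells (IL-4C minus PBS) on the horizontal axis and elicited cells (Thio+IL-4C minus Thio) on the vertical axis, with equal responses on the dashed line. Most members lie below the line, Mvd is high on both axes, and Srebf2, Tm7sf2, Dhcr7 and Sc5d are right of 0 and below -1; Ch25h, at 0.77 and 8.35, is not drawn.

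The mevalonate and isoprenoid stage has 8 members. With IL-4C in resident cells 5 of them rose and Ggps1 fell, and with Thio alone 4 were higher and Ggps1 was lower. Fdps, which makes farnesyl pyrophosphate, the branch point to sterols and prenylated proteins, was at 1.07, 1.07 and 0.61 on the PBS arrays and 3.03, 3.20, 3.8 and 2.74 on the IL-4C arrays. With Thio it was at 2.62, 2.44 and 2.24 and with Thio+IL-4C at 2.01, 2.45, 2.12 and 2.37. All arrays outside PBS were higher than every PBS array, and the IL-4C arrays were the highest of all. Its difference was 2.28 (SE 0.23, adjusted p = 1.12e-05) for IL-4C versus PBS, or 4.84-fold, and 1.52 (SE 0.24, adjusted p = 0.000433) for Thio versus PBS. In elicited cells IL-4C gave -0.19 (adjusted p = 0.505), with a 95% interval of -0.69 to 0.31, and the interaction was -2.47 (SE 0.32, adjusted p = 0.000134).

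Mvd, the decarboxylase that yields isopentenyl pyrophosphate, was called higher with IL-4C in both kinds of cell and was not called with Thio against PBS. It was at 0.02, 0.03 and 0.07 with PBS and 0.05, -0.26 and -0.19 with Thio, groups that overlap. With IL-4C it was at 1.92, 2.05, 2.23 and 2.04 and with Thio+IL-4C at 1.0, 1.09, 1.03 and 1.60. Both IL-4C groups lay above both others, and every resident IL-4C array above every elicited one. The difference was 2.02 (SE 0.15, adjusted p = 9.86e-07) in resident cells, 4.06-fold, and 1.31 (SE 0.15, adjusted p = 2.37e-05) in elicited cells, 2.48-fold. The resident response was the larger, by an interaction of -0.71 (SE 0.21, adjusted p = 0.0221), and Thio versus PBS was -0.17 (adjusted p = 0.383).

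Hmgcs1, the synthase that feeds mevalonate formation, was at 1.19, 1.25 and 1.02 with PBS, 1.65, 1.98, 2.14 and 1.54 with IL-4C, 2.98, 2.65 and 2.47 with Thio and 2.20, 2.23, 2.20 and 2.65 with Thio+IL-4C. PBS was lowest and no array of another group reached it, while the Thio and Thio+IL-4C arrays overlap. It rose by 0.68 (SE 0.18, adjusted p = 0.0121) with IL-4C in resident cells and was 1.55 (SE 0.19, adjusted p = 5.97e-05) higher with Thio, and the IL-4C difference in elicited cells was -0.38 (adjusted p = 0.113). Mvk, mevalonate kinase, was at 1.1, 1.06 and 0.82 with PBS, 1.68, 1.56, 1.89 and 1.46 with IL-4C, 1.90, 2.69 and 2.54 with Thio and 1.98, 1.88, 2.09 and 1.74 with Thio+IL-4C. On the brighter probe it followed the same order of group means. Its differences there were 0.66 (adjusted p = 0.0154) for IL-4C and 1.39 (adjusted p = 0.000157) for Thio versus PBS. The 2 higher Thio arrays were those of slide 2. Its other probe gave 0.55 (SE 0.15) and 0.60 (SE 0.16) for these. With IL-4C in elicited cells the other probe gave -0.61 (SE 0.15, p adjusted over all probes 0.00932), and the brighter one -0.45 (SE 0.18, adjusted p = 0.0681). On the other probe the Thio+IL-4C arrays, at -0.75 to -0.39, overlapped PBS, at -0.66 to -0.44, so the order rests on 1 probe. Idi1, which isomerises isopentenyl pyrophosphate, was at 0.16, 0.34 and -0.13 with PBS and 1.44, 1.45, 1.79 and 0.76 with IL-4C, a rise of 1.24 (SE 0.22, adjusted p = 0.00103). Its Thio arrays, at 1.09, 0.95 and 0.89, lay above PBS and within the IL-4C range, higher than PBS by 0.85 (adjusted p = 0.0144), a call lost without PBS 3 (0.058) and with slide as a block (0.0568).

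Ggps1, which turns farnesyl into geranylgeranyl pyrophosphate for protein prenylation and so leads away from sterols, went down where its neighbours went up. It was at 0.35, 0.63 and 0.57 with PBS, 0.07, 0.11, -0.16 and 0.00 with IL-4C and 0.07, -0.24 and -0.11 with Thio, and no array of the last 2 groups reached a PBS array. It changed by -0.51 (SE 0.12, adjusted p = 0.00438) with IL-4C and was -0.61 (SE 0.12, adjusted p = 0.00216) against PBS with Thio. Its other probe gave 0.20 (SE 0.12) for IL-4C and -0.20 (SE 0.13) for Thio versus PBS, so the IL-4C fall rests on 1 probe. Pmvk, phosphomevalonate kinase, was not called in any comparison on its brighter probe. There its Thio+IL-4C arrays spread from 2.29 to 3.65 and the Thio ones from 1.96 to 2.96. Its other probe gave 1.0 (SE 0.18, p adjusted over all probes 0.0015) for IL-4C versus PBS where the brighter one gave 0.27 (SE 0.31). With IL-4C in elicited cells the other probe gave 0.70 (SE 0.18, p adjusted over all probes 0.012) and the brighter one 0.63 (SE 0.31).

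Acat2, the thiolase of the first condensation, split by slide. It was at -1.99, -2.48 and -2.43 with PBS, -2.77, -3.26, -2.86 and -3.28 with IL-4C and -2.85, -0.73 and -0.78 with Thio, and at -0.06, -0.11, -0.27 and 0.12 with Thio+IL-4C. All 8 arrays of slide 1 lay between -3.28 and -1.99 and all 6 of slide 2 between -0.78 and 0.12, with Thio 1 in the former. It was called with IL-4C in elicited cells, at 1.37 (SE 0.42, adjusted p = 0.0217), and 0.67 (0.0134) with slide as a block. That call was lost without Thio+IL-4C 4, at 0.0518. Thio versus PBS was 0.85 (adjusted p = 0.137), and -0.55 within slide 1. Among the members Ebp and Srebf1 also split by slide without overlap, both lower on slide 2, as did 16.2% of all genes upward and 18% downward.

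At the squalene and first sterol stage, Sqle had the largest rise of any member with IL-4C in resident cells and the largest of any enzyme with Thio. Sqle, squalene epoxidase, is an oxygen-using and rate-controlling step, and it was at -1.15, -1.24 and -2.22 with PBS, 0.73, 0.92, 1.29 and 0.30 with IL-4C, 1.27, 1.04 and 0.86 with Thio and 0.77, 1.41, 0.90 and 1.84 with Thio+IL-4C. Every array outside PBS lay above every PBS array, and the other 3 groups overlap each other. The difference was 2.34 (SE 0.33, adjusted p = 0.00015) for IL-4C, 5.07-fold, and 2.59 (SE 0.35, adjusted p = 0.000114) for Thio, 6.02-fold. Adding IL-4C in elicited cells gave 0.17 (adjusted p = 0.679), with a 95% interval of -0.54 to 0.89, and the interaction was -2.17 (SE 0.46, adjusted p = 0.00366).

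Lss, which closes squalene epoxide to lanosterol, was at -1.39, -1.53 and -1.92 with PBS and -1.05, -0.67, -0.49 and -0.96 with IL-4C, where it rose by 0.82 (SE 0.23, adjusted p = 0.0171). With Thio it was at -0.64, -1.34 and -1.58, overlapping PBS, with a difference of 0.43 (adjusted p = 0.174) and of 0.97 (0.0199) within slide 1. With Thio+IL-4C it was at -1.80, -1.63, -1.60 and -1.27, within the range of the PBS arrays except for the highest array, Thio+IL-4C 4, at -1.27. Fdft1, squalene synthase, was at -0.70, -1.16 and -1.60 with PBS and -0.67, -0.40, 0.23 and -0.82 with IL-4C, which overlap. Its difference was 0.74 (adjusted p = 0.0609) for IL-4C and 0.72 (adjusted p = 0.0647) for Thio versus PBS. Both reached the threshold without PBS 1, at 0.0288 and 0.0331, and its other probe gave -0.33 (SE 0.38) and -0.42 (SE 0.41).

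**Figure D3:**
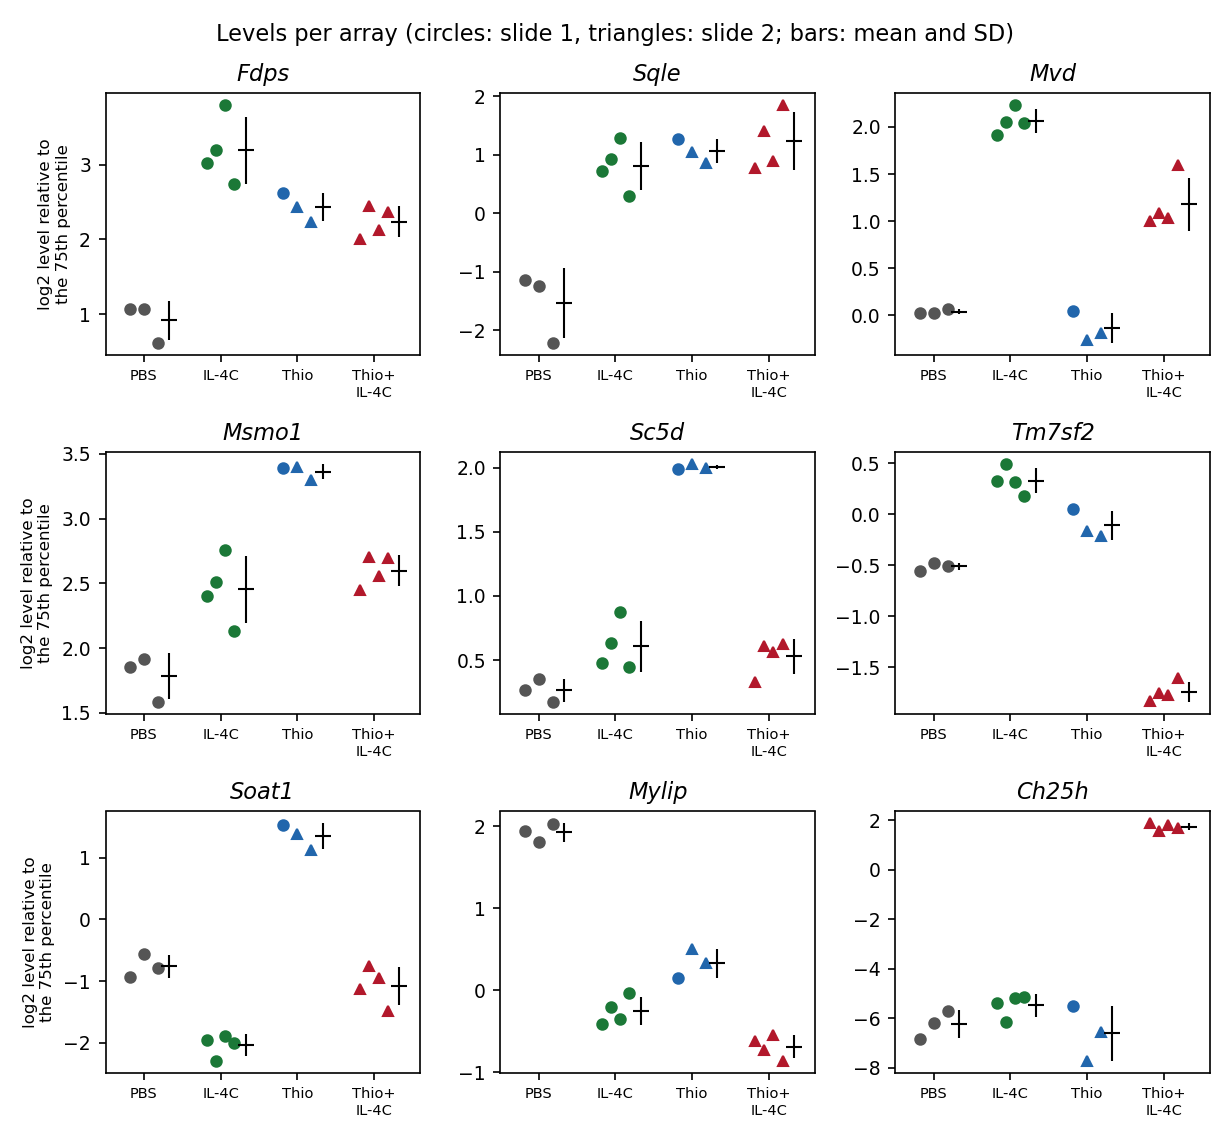
Log2 level relative to the 75th percentile of the array for 9 members on each of the 14 arrays, circles for slide 1 and triangles for slide 2, with the mean and SD of each group beside its points. Fdps and Sqle are lowest with PBS, Mvd is high in both IL-4C groups, Msmo1, Sc5d and Soat1 are highest with Thio, Tm7sf2 is lowest with Thio+IL-4C, and Ch25h is at 1.56 to 1.88 with Thio+IL-4C and below -5 elsewhere.

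The lanosterol to cholesterol stage has 9 members, of which 6 rose with IL-4C in resident cells and none fell on the brightest probes. With Thio 7 were higher and Lbr was lower, and with IL-4C in elicited cells 4 fell and Lbr rose. Msmo1, the methylsterol oxidase that begins removal of the methyl groups, was at 1.85, 1.92 and 1.59 with PBS and 2.40, 2.51, 2.76 and 2.13 with IL-4C. It was at 3.39, 3.40 and 3.30 with Thio and 2.45, 2.7, 2.55 and 2.69 with Thio+IL-4C. The Thio arrays lay above all others, and the IL-4C and Thio+IL-4C arrays overlap between them and PBS. It rose by 0.67 (SE 0.14, adjusted p = 0.0033) with IL-4C in resident cells and fell by 1.7-fold in elicited cells, at -0.76 (SE 0.14, adjusted p = 0.00115). Thio versus PBS was 1.58 (SE 0.15, adjusted p = 8.22e-06).

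Sc5d, the desaturase near the end of the pathway, was at 1.99, 2.03 and 2.0 with Thio, alike on both slides. It was at 0.27, 0.35 and 0.17 with PBS, 0.48, 0.64, 0.87 and 0.44 with IL-4C and 0.33, 0.61, 0.56 and 0.62 with Thio+IL-4C, all more than 1 unit below Thio. Thio versus PBS was 1.74 (SE 0.13, adjusted p = 7.63e-07), 3.34-fold, and with IL-4C in elicited cells it was 2.78-fold lower, at -1.48 (SE 0.12, adjusted p = 1.68e-06). Thio+IL-4C against IL-4C was -0.08 (adjusted p = 0.552).

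Tm7sf2 and Lbr encode enzymes with the same sterol reductase activity, Lbr being also the lamin B receptor of the nuclear envelope, and they moved apart. Tm7sf2 was at -0.55, -0.48 and -0.51 with PBS, 0.33, 0.49, 0.32 and 0.18 with IL-4C, 0.05, -0.17 and -0.21 with Thio and -1.84, -1.76, -1.77 and -1.60 with Thio+IL-4C. No array of one group overlapped another group. It rose by 0.84 (SE 0.10, adjusted p = 5.53e-05) in resident cells and changed by -1.63 (SE 0.10, adjusted p = 2.74e-07) in elicited cells, 3.1-fold down, and its other probe gave 0.51 and -1.18. Lbr was at 2.14, 2.22 and 2.16 with PBS, 1.90, 1.99, 2.08 and 1.74 with IL-4C, 0.36, 0.15 and 0.13 with Thio and 1.09, 0.78, 0.89 and 0.26 with Thio+IL-4C. Resident cells lay above elicited cells on every array, and Thio versus PBS was -1.96 (SE 0.18, adjusted p = 5.17e-06), or 3.9-fold lower. With IL-4C in elicited cells it rose by 0.54 (SE 0.17, adjusted p = 0.0239), although Thio+IL-4C 4 lay within the Thio range. The call was lost without Thio 2 (0.0578), Thio 3 (0.0654) or any of Thio+IL-4C 1 to 3 (0.0508 to 0.061). The other probe of Lbr fell with IL-4C in resident cells, at -0.82 (SE 0.17), where the brighter one gave -0.25 (SE 0.17). For Thio versus PBS and for IL-4C in elicited cells the other probe gave -2.32 (SE 0.19) and 0.69 (SE 0.17).

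Dhcr7, the reductase of the last step, was at -0.56, -0.53 and -0.43 with PBS, -0.14, 0.02, 0.41 and -0.13 with IL-4C, 0.35, 0.01 and -0.11 with Thio and -1.36, -1.42, -1.04 and -1.63 with Thio+IL-4C. The Thio+IL-4C arrays lay below all others and the PBS arrays below those of the remaining groups. It fell in elicited cells by 2.72-fold, at -1.45 (SE 0.17, adjusted p = 3.84e-05), after smaller rises of 0.55 (adjusted p = 0.0299) with IL-4C and 0.59 (adjusted p = 0.0244) with Thio against PBS. The Thio call was lost without PBS 1 (0.062), PBS 2 (0.0659) or Thio 1 (0.0508).

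Nsdhl and Hsd17b7, which act in turn on the sterol ring, rose with IL-4C in resident cells. Nsdhl was at -1.42, -1.38 and -1.5 with PBS and -0.40, -0.02, -0.17 and -0.57 with IL-4C, a rise of 1.15 (SE 0.16, adjusted p = 0.000164). With Thio it was at -0.69, -1.07 and -0.99 and with Thio+IL-4C at -1.09, -1.34, -1.23 and -1.64, and its IL-4C difference in elicited cells was -0.41 (adjusted p = 0.0657). Its Thio call, 0.52 (adjusted p = 0.0308), was lost without any of PBS 1 to 3, Thio 1 or Thio 3, at 0.0591 to 0.0851. The other probe of Nsdhl gave 0.73 (SE 0.32) for IL-4C and 0.91 (SE 0.34) for Thio versus PBS, neither called. Hsd17b7 was at -3.12, -3.34 and -4.12 with PBS, where PBS 3 was lowest, and -2.44, -2.26, -2.01 and -2.53 with IL-4C, a rise of 1.22 (SE 0.24, adjusted p = 0.00167). With Thio it was at -2.68, -2.19 and -2.18, higher than PBS by 1.18 (adjusted p = 0.00319) and at an adjusted p of 0.0867 with slide as a block, while its other probe gave -0.15 (SE 0.26).

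Cyp51, the demethylase of lanosterol, was at -2.34, -2.39 and -3.07 with PBS, -2.21, -1.65, -1.38 and -2.41 with IL-4C, -1.56, -0.30 and -1.32 with Thio and -1.36, -0.92, -1.46 and -0.08 with Thio+IL-4C. Both elicited groups lay above every PBS array but spread over more than 1 unit. Thio versus PBS was 1.54 (SE 0.43, adjusted p = 0.0143), a call lost without PBS 3 (0.0578), without Thio 2 (0.0648) and with slide as a block (0.235). IL-4C versus PBS was 0.69 (adjusted p = 0.249). Ebp, the sterol isomerase, was at 4.07 to 4.30 with PBS, 4.47 to 4.68 with IL-4C, 3.61 to 4.28 with Thio and 3.78 to 3.84 with Thio+IL-4C. Its IL-4C difference in resident cells was 0.35 (adjusted p = 0.088), with an adjusted p of 0.00429 with slide as a block.

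The sterol sensor did not move as a unit with the enzymes. With IL-4C in resident cells 1 of 5 members rose, Srebf2, and none fell. On the brightest probes Srebf2 and Insig2 were higher and Srebf1 lower with Thio. With IL-4C in elicited cells Srebf2, Srebf1, Scap and Insig2 fell on these probes. Srebf2, the SREBP gene most tied to cholesterol synthesis, was at 1.07, 0.93 and 1.30 with PBS, 1.77, 2.02, 2.11 and 2.19 with IL-4C, 4.72, 4.18 and 4.24 with Thio and 2.08, 1.83, 2.65 and 1.80 with Thio+IL-4C on its brighter probe. On that probe the Thio arrays lay above all others by more than 1 unit and PBS below all others, with Thio versus PBS at 3.28 (SE 0.23, adjusted p = 5.27e-07), 9.71-fold, and the IL-4C effect in elicited cells at -2.29 (SE 0.21, adjusted p = 5.37e-06). The other probe of Srebf2 gave 0.27 (SE 0.23) and 0.12 (SE 0.22) for these comparisons, so the Thio rise and its loss with IL-4C rest on 1 probe. For IL-4C in resident cells both probes rose alike, at 0.92 (SE 0.21) and 0.82 (SE 0.22).

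Scap, the escort, was at 1.82, 1.80 and 1.68 with PBS, 2.19, 2.26, 2.26 and 2.28 with IL-4C, 2.41, 1.91 and 1.95 with Thio and 0.94, 1.27, 1.63 and 0.87 with Thio+IL-4C. The Thio+IL-4C arrays lay below all others, with a difference of -0.91 (SE 0.18, adjusted p = 0.00147) against Thio. In resident cells its IL-4C arrays all lay above PBS, yet the difference was 0.48 (adjusted p = 0.0598), with an adjusted p of 0.0265 with slide as a block. Insig2 was at 0.83, 1.04 and 0.81 with PBS, 0.76, 0.58, 0.69 and 0.74 with IL-4C, 1.39, 1.25 and 1.37 with Thio and 0.53, 0.65, 0.69 and 0.81 with Thio+IL-4C. Thio was highest on every array, by 0.44 (adjusted p = 0.00618) over PBS, and IL-4C changed it in elicited cells by -0.66 (SE 0.10, adjusted p = 0.000217). Its other probe gave 0.11 (SE 0.22) and -0.19 (SE 0.20).

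Insig1, itself a target of the SREBPs, was at -1.91 to -1.51 with PBS, -2.51 to -1.79 with IL-4C, -2.72 to -1.87 with Thio and -2.54 to -1.77 with Thio+IL-4C. All 4 groups overlap, and its differences of -0.49 (adjusted p = 0.185) for IL-4C and -0.66 (adjusted p = 0.0642) for Thio versus PBS were not called. Srebf1, the SREBP gene more tied to fatty acids, was at -1.89, -2.01 and -2.27 with PBS, -2.30, -2.37, -2.24 and -2.29 with IL-4C, -2.40, -2.77 and -2.85 with Thio and -2.94, -3.25, -3.28 and -3.13 with Thio+IL-4C. It was lower with Thio than with PBS, at -0.61 (adjusted p = 0.00567), and with Thio+IL-4C than with Thio, at -0.48 (adjusted p = 0.0148). The former was -0.34 (0.152) within slide 1.

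**Figure D4:**
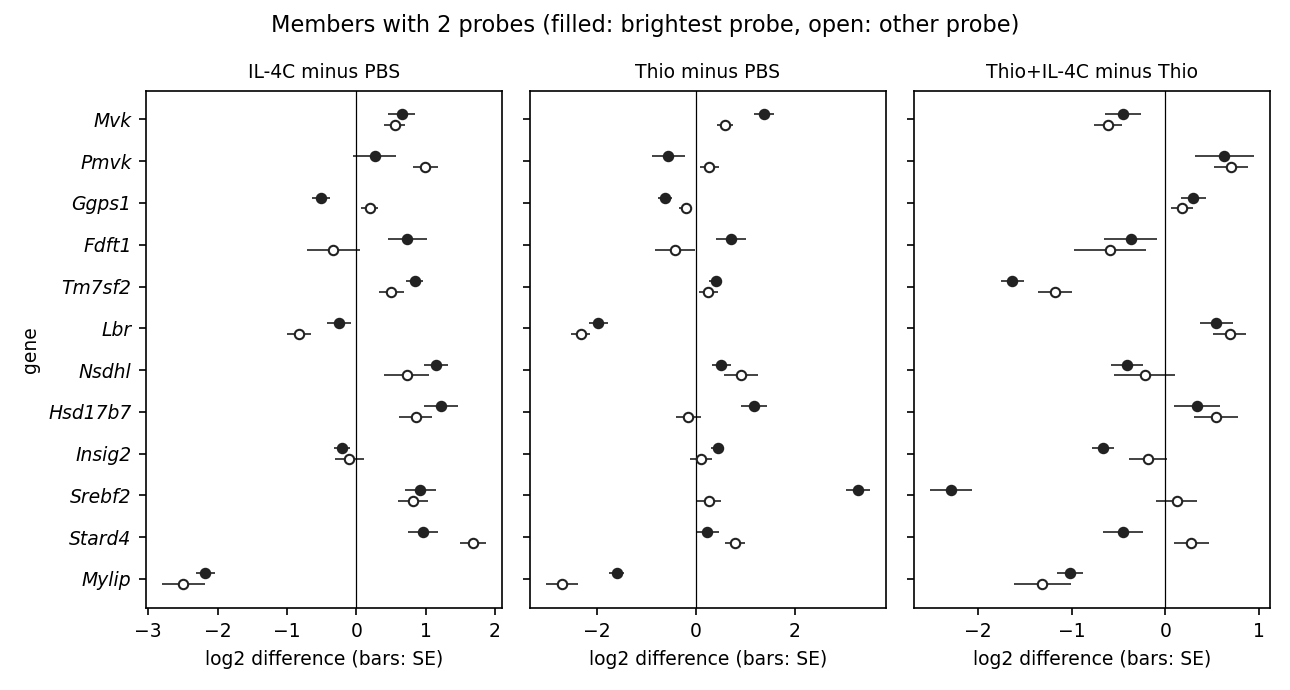
Log2 differences with their SE for the 12 members with 2 probes, filled for the brighter probe used throughout and open for the other, in 3 comparisons. The pairs mostly lie on the same side of 0, and Srebf2 differs most, at 3.28 and 0.27 for Thio minus PBS.

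Among the 4 members outside synthesis and sensing, Ch25h had by far the widest difference of the 29. Ch25h hydroxylates cholesterol to an oxysterol that holds back SREBP processing and acts in immune signalling. It was at -6.83, -6.21 and -5.71 with PBS, -5.41, -6.16, -5.20 and -5.15 with IL-4C and -5.51, -7.73 and -6.58 with Thio, and at 1.88, 1.56, 1.81 and 1.71 with Thio+IL-4C. The Thio+IL-4C arrays lie more than 6 units above every other array. Its probe passed the scanner call of well above background on 0 of 3 PBS arrays, 4 of 4 IL-4C arrays, 1 of 3 Thio arrays and 4 of 4 Thio+IL-4C arrays. Thio+IL-4C was 326-fold above Thio, at 8.35 (SE 0.45, adjusted p = 7.46e-08), and 149-fold above IL-4C, at 7.22 (SE 0.41, adjusted p = 8.03e-08). The size over Thio is uncertain, as only 1 of 3 Thio arrays was well above background. No PBS array was well above background, so the size over PBS is uncertain too. Taken from the PBS signal on this probe, Thio+IL-4C was 254-fold above PBS on this scale, which is no lower bound. These sizes changed with the setting: they were 59.7-fold over Thio, 48.7-fold over IL-4C and 37.0-fold over PBS in the authors' deposited table, and 98.0-fold, 77.0-fold and 61.2-fold with normexp. The fit with slide as a block gave 477-fold, 468-fold and 797-fold. The interaction was 7.58 (SE 0.63, adjusted p = 5.3e-06), and 6.30 in the authors' deposited table. The IL-4C and PBS arrays overlap, at 0.77 (adjusted p = 0.242) for IL-4C versus PBS and -0.40 in the authors' deposited table, and Thio versus PBS was -0.36 (adjusted p = 0.548). Ch25h is the one member not well above background on all 14 arrays.

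Soat1, which esterifies cholesterol for storage, went up with thioglycollate and down with IL-4C in both kinds of cell. It was at -0.93, -0.56 and -0.78 with PBS, -1.95, -2.29, -1.89 and -2.0 with IL-4C, 1.53, 1.38 and 1.12 with Thio and -1.13, -0.76, -0.95 and -1.48 with Thio+IL-4C. The Thio arrays were highest, the IL-4C arrays lowest, and the Thio+IL-4C arrays overlap PBS. Thio versus PBS was 2.10 (SE 0.19, adjusted p = 4.89e-06), 4.29-fold. IL-4C changed it by -1.27 (SE 0.18, adjusted p = 0.00016) in resident and -2.42 (SE 0.18, adjusted p = 8.58e-07) in elicited cells, a larger fall in the latter by an interaction of -1.15 (adjusted p = 0.00451).

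Mylip, the ubiquitin ligase that marks lipoprotein receptors for degradation and is a known target of the sterol-activated LXR receptors, was highest with PBS. It was at 1.94, 1.81 and 2.03 with PBS, -0.42, -0.21, -0.35 and -0.04 with IL-4C, 0.15, 0.51 and 0.33 with Thio and -0.62, -0.73, -0.54 and -0.86 with Thio+IL-4C. PBS lay more than 1 unit above all others, and no 2 groups overlap. IL-4C changed it by -2.17 (SE 0.13, adjusted p = 2.04e-07) in resident cells, 4.52-fold down, and by -1.02 (SE 0.13, adjusted p = 5.5e-05) in elicited cells, and Thio versus PBS was -1.59 (SE 0.14, adjusted p = 2.88e-06). Its other probe gave -2.49, -1.31 and -2.69 for these. Stard4, a cytosolic sterol carrier, was at -0.64, -0.43 and -1.01 with PBS, 0.15, 0.48, 0.62 and -0.15 with IL-4C, -0.35, -0.58 and -0.43 with Thio and -0.92, -0.87, -1.22 and -0.63 with Thio+IL-4C. The IL-4C arrays lay above all others, with a rise of 0.96 (SE 0.20, adjusted p = 0.0029) and 1.69 (SE 0.19) on the other probe. Its difference in elicited cells was -0.46 (adjusted p = 0.0973) on the brighter probe and 0.28 (SE 0.19) on the other.

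Under IL-4C in both, elicited cells were set directly against resident ones in Thio+IL-4C versus IL-4C. Of the 29 members 5 were higher (Acat2, Hmgcs1, Cyp51, Soat1 and Ch25h), 12 lower and 12 not called, beside 27.9% of all genes higher and 42.1% lower. The member median of -0.19 was close to the -0.21 of all genes. With slide as a block, resting on Thio 1 as the link, 3 were higher (Hmgcs1, Soat1 and Ch25h) and 4 lower (Tm7sf2, Lbr, Dhcr7 and Mylip), beside 12.3% and 14.4% of all genes, and the median of all genes was 0.03. The lower calls of Mvd, Fdps, Nsdhl, Ebp, Srebf1, Scap and Stard4 then had adjusted p of 0.106, 0.281, 0.0891, 0.619, 0.129, 0.16 and 0.0718. Lss turned from -0.78 (adjusted p = 0.00661) to 0.03 (0.962). Of the higher ones Acat2 went from 2.97 to 0.87 (0.0578) and Cyp51 from 0.96 to 0.21 (0.872). Slide and group differ together in this comparison except through that array. Tm7sf2 kept its call, at -2.07 (SE 0.10, adjusted p = 1.56e-08) and -1.83 (1.75e-05) with the block. Cyp51 was lost without IL-4C 1 (0.0882), IL-4C 4 (0.104), Thio+IL-4C 2 (0.0698) or Thio+IL-4C 4 (0.114), and Hmgcs1 without IL-4C 1 (0.058), IL-4C 4 (0.0659) or Thio+IL-4C 4 (0.0635).

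**Figure D5:**
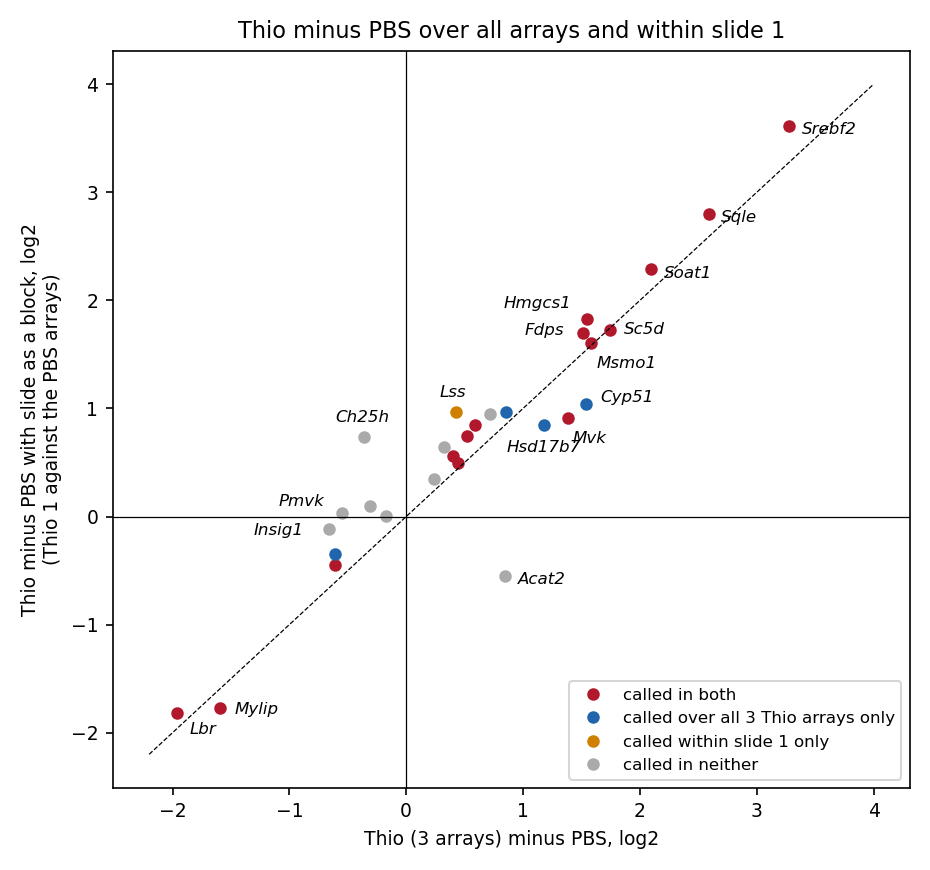
Thio minus PBS for the 29 members as log2 differences over all 3 Thio arrays (horizontal) and with slide as a block, which sets Thio 1 alone against the PBS arrays of its slide (vertical), with equal values on the dashed line. Srebf2 at 3.28 and 3.62 and Soat1 at 2.10 and 2.29 keep their side of 0, and Acat2 lies at 0.85 and -0.55.

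Thio 1 decided part of the calls that involve Thio. Without it, Acat2 was called higher (1.55) and Ebp (-0.51), Insig1 (-0.94) and Pmvk (-0.85) lower in Thio versus PBS. That made 7 lower members instead of 4, beside 7770 of all 20347 genes instead of 4940. The added lower calls are thus no result about the members. In Thio+IL-4C versus Thio, Ggps1 (0.0195), Pmvk (0.0299) and Mvk (0.0021) then passed, the first pair higher and Mvk lower. In this comparison and in the interaction, slide as a block gives the same differences as leaving out Thio 1, so it is no separate check. Of the interaction calls Fdft1 was lost without any of 10 arrays, at up to 0.118 without PBS 3. Insig2 was lost without PBS 1 (0.0637), PBS 3 (0.0659), IL-4C 1 (0.0525) or IL-4C 4 (0.052), and Lbr without PBS 2 (0.0547) or IL-4C 4 (0.0509).

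Over the 4 groups, the highest group mean was with IL-4C for 11 members, with Thio for 8, with PBS for 5 and with Thio+IL-4C for 5. The lowest was with PBS for 13, Thio+IL-4C for 8, Thio for 6 and IL-4C for 2. The 2 members lowest with IL-4C were Acat2 and Soat1.

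Genes next to the pathway were counted from lists chosen with earlier results of these data known. The counts below stand beside the shares of all genes called higher and lower, which were 16.8% and 15.4% with IL-4C in resident cells, 20.1% and 24.3% with Thio against PBS, and 16.3% and 23% with IL-4C in elicited cells. A count near those shares is no result about its list. Of 17 genes of sterol trafficking and lysosomal release, 4 were higher and 2 lower with IL-4C in resident cells, 8 and 3 with Thio against PBS, and 0 and 12 with IL-4C in elicited cells. Nceh1, which frees cholesterol from stored esters, and Osbpl8, a sterol-binding transfer protein, led both latter comparisons. Nceh1 was at 2.21, 2.44 and 2.24 with PBS, 1.99, 1.96, 2.0 and 2.22 with IL-4C, 5.40, 5.01 and 5.01 with Thio and 2.52, 2.47, 2.42 and 1.86 with Thio+IL-4C, so that Thio alone stood above the rest. Its differences were 2.84 (SE 0.18, adjusted p = 2.13e-07) for Thio versus PBS and -2.82 (SE 0.17, adjusted p = 1.65e-07) for IL-4C in elicited cells, beside 2.10 and -2.42 for Soat1, the enzyme of the opposite reaction. Osbpl8 gave 2.74 (adjusted p = 6.42e-09) and -2.29 (adjusted p = 2.03e-08).

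Of 12 genes of LXR and sterol export, 3 were higher and 4 lower with IL-4C in resident cells, 2 and 4 with Thio, and 2 and 6 with IL-4C in elicited cells. Abca1, the exporter of cholesterol to lipoproteins and an LXR target like Mylip, was at 2.13, 2.31 and 2.45 with PBS, -2.35, -3.31, -3.37 and -2.25 with IL-4C, 2.94, 2.62 and 2.88 with Thio and 0.20, 0.64, 0.67 and 1.34 with Thio+IL-4C. It was lowest with IL-4C, at -5.12 (SE 0.32, adjusted p = 2.77e-07) against PBS, and changed by -2.10 (adjusted p = 0.00022) in elicited cells. Nr1h3, which encodes an LXR, was 3.73 (SE 0.11, adjusted p = 5.52e-10) higher with Thio than with PBS and changed by -2.92 (SE 0.10, adjusted p = 3.26e-09) when IL-4C was added. Pltp, the phospholipid transfer protein, changed by -5.07 (adjusted p = 5.52e-08) in resident cells and rose by 2.51 (adjusted p = 8.44e-06) in elicited ones.

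Of 7 genes of oxysterol metabolism, 1 was higher and 4 lower with IL-4C in resident cells, 2 and 4 with Thio, and 1 and 3 with IL-4C in elicited cells. Cyp7b1, which acts on the product of Ch25h, was at -1.24, -0.91 and -1.06 with PBS, -3.35, -3.74, -3.05 and -4.02 with IL-4C, -6.36, -5.98 and -5.37 with Thio and -4.86, -3.66, -2.58 and -5.06 with Thio+IL-4C. PBS was highest, and the Thio+IL-4C arrays spread over more than 2 units. Its differences against PBS were -2.47 (adjusted p = 0.00263) with IL-4C and -4.83 (adjusted p = 2.93e-05) with Thio, and it rose by 1.86 (adjusted p = 0.013) with Thio+IL-4C against Thio. Cyp27a1, which also makes an oxysterol, changed with IL-4C by -2.05 (adjusted p = 4.63e-08) in resident and -1.49 (adjusted p = 3.56e-07) in elicited cells.

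Of 18 genes of fatty acid and lipid synthesis, the branch more tied to Srebf1, 4 rose and 5 fell with IL-4C in resident cells, 4 were higher and 4 lower with Thio, and 6 rose and 5 fell with IL-4C in elicited cells. Acaca and Acly, which make malonyl-CoA and acetyl-CoA, were lower with Thio than with PBS, at -3.47 (adjusted p = 1.06e-09) and -2.39 (adjusted p = 3.9e-08), where most enzymes of the sterol branch were higher. Acsl3 and Lpin1 were higher with Thio, at 1.29 and 1.14. Scd2, a fatty acid desaturase, rose with IL-4C by 1.65 (adjusted p = 0.00175) in resident and 2.59 (adjusted p = 5.22e-05) in elicited cells. Fads2 rose by 1.09 (adjusted p = 0.0429) in resident cells and Fasn, the fatty acid synthase, by 1.64 (adjusted p = 0.00677) in elicited ones. Lpin1 changed with IL-4C by -1.15 (adjusted p = 4.34e-05) in resident and -1.49 (adjusted p = 4.53e-06) in elicited cells. Agpat2 changed by -1.27 (adjusted p = 0.000792) in the former and Mid1ip1 by -1.81 (adjusted p = 3.28e-06) in the latter. The other probe of Lpin1 gave -0.29 with Thio and -0.12 and -1.09 with IL-4C. Of 16 genes of SREBP processing and sterol-regulated degradation, 7 and 2 were higher and lower with IL-4C in resident cells, 4 and 4 with Thio and 3 and 5 with IL-4C in elicited cells. Of 14 genes that use isoprenoids, these counts were 2 and 3, 2 and 4, and 3 and 5.

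Several of these small counts rest on single arrays. Without Thio 1, the fatty acid genes higher with IL-4C in resident cells and those lower with Thio were 7 each, the trafficking genes lower with Thio were 6, and those higher with IL-4C in elicited cells were 2. The isoprenoid-using genes lower with Thio were then 9. Over all 20347 genes, those higher with IL-4C in resident cells were then 4287 in place of 3415. Those lower with Thio were 7770 in place of 4940. The 2 trafficking genes lower with IL-4C in resident cells became 1 or 0 without any of PBS 1 to 3 or IL-4C 1 to 3. The LXR and export genes higher with IL-4C in elicited cells became 1 without any of 11 arrays, and the 4 oxysterol genes lower with Thio became 2 without Thio 2. For SREBP processing in resident cells the lower genes were 5 without Thio 1 and 1 without any of 8 others, and the 5 lower with IL-4C in elicited cells became 2 or 3 without any of 8 arrays.

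The lists gave other counts in places with slide as a block. For Thio versus PBS, 10 trafficking genes were higher and 3 lower, 2 and 3 of LXR and export, 1 and 2 of oxysterol metabolism, 6 and 6 of fatty acid synthesis, 5 and 3 of SREBP processing and 4 and 5 that use isoprenoids. For IL-4C in elicited cells these counts were 2 and 12, 3 and 6, 1 and 3, 7 and 5, 5 and 3, and 4 and 4. In resident cells they were 4 and 2, 3 and 4, 1 and 5, 7 and 5, 7 and 5, and 4 and 4.

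Cell division moved with IL-4C beside the members. Of 18 cell cycle genes 17 rose with IL-4C in resident cells and 16 in elicited cells, and none fell in either, while 11 were lower and 1 higher with Thio than with PBS. The median differences were 3.39, 2.35 and -0.99, and without PBS 3 the genes lower with Thio were 7. When slide was a block, 18 were higher with IL-4C in resident cells and 15 in elicited cells, with none lower in either, and 7 were lower and 0 higher with Thio than with PBS. Rrm2, a subunit of the enzyme that makes deoxynucleotides, was at 0.21, -1.19 and 0.23 with PBS, 4.56, 4.49, 4.70 and 4.59 with IL-4C, -1.43, -0.44 and -1.28 with Thio and 2.97, 2.02, 2.09 and 2.55 with Thio+IL-4C. Both IL-4C groups lay above both others on every array, as for Mvd. The part of cell division in the sterol gene differences was not tested.

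Markers of other cells also differed between groups. The summed level of 8 B cell markers was 3.31 to 3.91 on PBS 2 and PBS 3, PBS 1 having no value for all 8, and 1.53 to 1.73, 1.27 to 1.5 and 1.01 to 1.09 with IL-4C, Thio and Thio+IL-4C. That of 7 neutrophil markers was 0.57 to 0.67 with PBS, 2.16 to 2.48 with Thio and 2.61 to 3.87 with Thio+IL-4C. With IL-4C it was -0.19 to 0.20 on 3 arrays and 2.08 on IL-4C 1, without which no member call in IL-4C versus PBS changed. The sums for 7 T and NK cell markers were 3.07 to 3.32, 2.41 to 2.56, 2.68 to 2.79 and 2.78 to 3.35 in the same order of groups. Those for 6 eosinophil markers were 1.24 to 1.40, 1.08 to 1.24, 0.67 to 1.45 and 1.20 to 1.90, and for 6 mast cell markers 2.64 to 2.94, 1.65 to 1.81, 0.93 to 2.15 and 0.57 to 0.98. For 6 dendritic cell markers they were 2.01 to 2.34, 2.79 to 3.0, 1.26 to 1.51 and 1.97 to 2.59, and for 8 mesothelial and stromal markers 0.05 to 0.37, -0.61 to -0.38, 0.59 to 1.21 and -0.17 to 0.20. The 7 macrophage markers summed to 9.49 to 9.71, 7.90 to 7.96, 7.81 to 8.26 and 7.09 to 7.34, and the 4 monocyte markers to 7.61 to 8.18, 6.80 to 7.04, 5.49 to 5.88 and 7.16 to 7.37, without IL-4C 3, which had no value for all 4. No list held a gene that was above background on no array. The part of these cells in the member differences was not tested.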

How the data were processed

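Single-colour Agilent arrays measured RNA of 14 sorted samples, and the authors deposited 1 scanner file per array, whose processed signal is an intensity already background-subtracted, per the file headers and the values. Agilent Feature Extraction 11.5 and limma are named in the submitters' processing notes. The authors also deposited a table of log2 values, used as an alternative; its background correction and normalization are not given in the sources used here.

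Here log2 of the processed signal minus log2 of each array's 75th percentile was taken without control spots and outlier spots, and spots of a probe were averaged. Probes well above background on at least 3 arrays were kept, and each gene was read from its brightest probe. Of 55681 probes 27235 had 1 symbol and 28446 none. All 14 arrays entered limma 3.58.1 (R 4.3.3; lmFit, eBayes) with 1 mean per group and Benjamini-Hochberg adjustment at 0.05, after a test on simulated data. The number of arrays limits the precision. The members, lists and the naming rule (all members; per list and comparison, the called genes that rose most and fell most, up to 2 each) were chosen with earlier results of these data known. Not every list gene that the rule gave is named in the text. The fold of Ch25h over PBS set the Thio+IL-4C mean over the higher, per array, of the PBS signal and the lowest signal well above background. The PBS signal was the higher on each array, so this fold is the plain difference of group means.

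Alternatives were slide as a fixed or random block, replicate number as a block, array weights, the authors' table, the mean of probes, no filter, normexp, quantile normalization, another percentile set, a fit on only the groups compared, and each array left out. The normexp alternative used median spot and background signals, with an offset of 50, since the mean signal was not used here.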

Additional observations from a re-analysis of the deposited data

Results flagged for a closer look

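The response to IL-4C differed between elicited and resident cells in 23 of the 29 members by the interaction term of limma, with adjusted p under 0.05 for each. The lower responses, as log2 differences of elicited minus resident, were -3.21 for Srebf2, -2.47 for Tm7sf2, -2.47 for Fdps and -2.17 for Sqle. They were -1.99 for Dhcr7, -1.82 for Sc5d, -1.56 for Nsdhl, -1.43 for Msmo1 and -1.42 for Stard4. Scap gave -1.39, Idi1 -1.34, Lss -1.21, Soat1 -1.15, Mvk -1.11 and Fdft1 -1.11. Hmgcs1 gave -1.06, Mvd -0.71 and Insig2 -0.46. The higher responses were 7.58 for Ch25h, 2.12 for Acat2, 1.16 for Mylip, 0.81 for Ggps1 and 0.79 for Lbr. Of the called members with another probe, 6 were not called on it, with limma's p adjusted over all probes. These were Ggps1 at -0.02 (adjusted p = 0.95), of opposite sign, Fdft1 at -0.26 (adjusted p = 0.746), Insig2 at -0.09 (adjusted p = 0.838), Srebf2 at -0.70 (adjusted p = 0.128), Nsdhl at -0.95 (adjusted p = 0.158) and Mylip at 1.18 (adjusted p = 0.0703).

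In 3 of 58 groups of 4 arrays a single array stood away from the others by Dixon's criterion, which chance meets in about 1 group in 20. Hmgcs1 was at 2.65 on Thio+IL-4C 4 and 2.20 to 2.23 on the other arrays of that group. Mvd was at 1.60 on the same array and 1.0 to 1.09 on the others. Ebp was at 4.68 on IL-4C 3 and 4.47 to 4.49 on the others.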

How the results depend on the processing

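Of 145 results (29 members in 5 comparisons), those that kept their direction and their side of the threshold were 145 without a filter, 141 with normexp, 141 with the other percentile set, 138 with quantile normalization, 134 with the mean of probes, 127 with array weights and 126 with the authors' table. Slide as a fixed block kept 121 and as a random block 125, and the fit on only the groups compared, made for the 4 comparisons other than the interaction (which uses all groups), kept 100, with 4 newly called and 12 no longer called. With slide as a fixed block Lss in Thio+IL-4C versus IL-4C turned from -0.78 to 0.031; the cause was not tested. In that comparison the members called lower went from 12 to 4 with the fixed and 6 with the random block, and those higher from 5 to 3 with the fixed block and 3 with the authors' table. Members lower went from 3 to 6 in IL-4C versus PBS and from 4 to 7 in Thio versus PBS with array weights. With only the groups compared, Thio versus PBS had 9 members higher and 2 lower, and Thio+IL-4C versus Thio 2 higher. The interaction had 3 higher with the authors' table. The cause of these shifts was not tested. Leaving out each array in turn gave 10 to 17 higher and 3 to 4 lower in IL-4C versus PBS, 12 to 16 and 4 to 7 in Thio versus PBS, 3 to 6 and 10 to 11 in Thio+IL-4C versus Thio, 3 to 6 and 12 to 13 in Thio+IL-4C versus IL-4C, and 4 to 6 and 16 to 18 for the interaction. Over all 20347 genes these runs gave 2929 to 4287 higher and 2452 to 4504 lower in IL-4C versus PBS. Thio versus PBS had 2849 to 6106 and 3357 to 7770, and Thio+IL-4C versus Thio 2792 to 4236 and 4148 to 5466. Thio+IL-4C versus IL-4C had 5275 to 6265 and 8027 to 9122, and the interaction 2163 to 3871 and 3488 to 4618.

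Over all genes, counts moved by over 1.5 times in Thio versus PBS, from 4099 higher and 4940 lower to 6404 and 8097 with array weights and 1826 and 2078 with only the groups compared, and to 2939 and 2975 lower with the fixed and random slide block. Without Thio 1 they were 6106 higher and 7770 lower. In Thio+IL-4C versus IL-4C, 5686 higher and 8562 lower became 2496 and 2940 with the fixed and 2351 and 3241 with the random block. With only the groups compared, IL-4C versus PBS went from 3124 to 4851 lower and Thio+IL-4C versus Thio from 3315 to 2150 higher. The interaction went from 2596 higher to 4239 with normexp and 4161 with array weights. The median of all genes shifted from -0.01 to -0.17 in IL-4C versus PBS and from -0.05 to 0.11 in the interaction with normexp, where the member median was 0.52 in the former.

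Replicate numbers did not pair the samples: same-numbered arrays of different groups had correlations of deviations of -0.446 to 0.367, over 0.1 in 4 of 19 pairs. With the replicate block 139 of the 145 results kept their call and 6 were no longer called: Lss and Sc5d in IL-4C versus PBS, Acat2 in Thio+IL-4C versus Thio, Hmgcs1 in Thio+IL-4C versus IL-4C, and Fdft1 and Insig2 in the interaction. Members higher in IL-4C versus PBS were then 13 in place of 15. Signal over background limits Ch25h, which no PBS array measured.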
